A study of Mus musculus with 8 samples.

Results

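Acta2, Tagln, Cnn1, Myl9, Actg2, Myh11, Tgfb1, Postn and Lox are 9 genes by which contractile, matrix-building fibroblasts, called myofibroblasts, are often recognised. They were taken by name from a table of 24972 genes, and all 9 passed the filter on low values. The measurements were RNA sequencing of total RNA from untreated primary mouse embryonic fibroblasts, which are fibroblast cultures grown from dissociated embryos, here of embryonic day 14. There were 8 libraries, 2 for each of 4 genotypes: wild type (WT); Tfam+/-, with 1 functional copy of the mitochondrial DNA packaging factor Tfam; Zbp1-/-, without the nucleic acid sensor Zbp1; and the double mutant Tfam+/-Zbp1-/-. All cultures grew in the same serum-containing medium and were passaged before harvest. The sources used here do not state strain, sex, or whether a genotype's pair of libraries stems from different embryos or from pools, so p-values measure only the spread between these libraries, which may be technical.

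Myofibroblasts form when fibroblasts take up bundles of smooth muscle actin and begin to pull on the matrix around them. The main inducing signal is TGF-beta, made as a latent complex and released by proteases or by tension, acting through Smad proteins. Contractile genes are also driven by serum response factor (SRF), which binds CArG boxes near them, with its cofactors of the myocardin family. Some of these cofactors, Mrtfa and Mrtfb, enter the nucleus when free actin monomer runs low. Fibroblasts on stiff plastic and in serum carry some of this programme without added stimulus.

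CArG boxes were sought in the promoters because several of the contractile genes moved together. A CArG box is a 10-base motif: a pair of C, a core of A or T, and a pair of G. RefSeq promoter windows (GRCm38.p6, 250 bases before a listed start) existed for 5 of the 9 genes, namely Acta2, Myl9, Cnn1, Postn and Tgfb1. The motif is its own reverse complement in form, so a match counts for both strands. The window of Acta2 held 2 boxes with 1 G or C inside the core, and that of Myl9 held 1 perfect box and 1 with a G inside. The windows of Cnn1, Postn and Tgfb1 held neither form. Over 32851 RefSeq promoters, 1.47% held a perfect box, 7.24% a box with 1 G or C inside, and 0.548% at least 2 of the latter. The stretches below show the boxes in capitals. Those of Acta2 lie at chr19:34255438-34255467 and chr19:34255388-34255417 on the minus strand, with boxes that begin 84 and 34 bases before the listed start, and are inside the first exon of a longer annotated transcript. That of Myl9 is chr2:156775214-156775407 on the plus strand and ends where the annotated gene begins. A match is a description of these letters and not a measured site.
Acta2, distal: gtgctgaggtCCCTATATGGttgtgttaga
Acta2, proximal: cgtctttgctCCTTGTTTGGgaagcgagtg
Myl9: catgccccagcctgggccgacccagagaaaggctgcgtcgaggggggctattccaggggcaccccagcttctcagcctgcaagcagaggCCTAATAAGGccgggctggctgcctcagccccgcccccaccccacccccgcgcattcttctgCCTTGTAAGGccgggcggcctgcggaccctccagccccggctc

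A second set of sequences bears on how well Acta2 and Actg2, the actins among the 9 genes, can be counted apart. Their coding sequences were 84.2% identical (955 of 1134 aligned bases), and the longest stretch shared by their annotated transcripts (GENCODE M21) was 29 bases. The 120-base coding windows with the most differences, 24, are printed with the differing bases in capitals. They are coding bases 796 to 915 of Acta2 and 793 to 912 of Actg2.
Acta2: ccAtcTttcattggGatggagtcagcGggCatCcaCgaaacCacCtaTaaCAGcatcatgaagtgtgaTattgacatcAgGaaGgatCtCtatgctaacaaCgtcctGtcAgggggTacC
Actg2: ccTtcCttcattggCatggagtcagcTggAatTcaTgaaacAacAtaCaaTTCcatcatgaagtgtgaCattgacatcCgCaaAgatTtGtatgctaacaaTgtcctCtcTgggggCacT
Acta2 shared a longest stretch of 47 bases with Actb and 56 with Actg1, and skeletal Acta1 shared 77 with Actb. The sources used here do not say how reads matching several actins were assigned. Levels of single actins are therefore uncertain to that extent.

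Values are the authors' normalized counts. Library totals were 16752835 to 18303036, over 16051 to 16261 genes above 0. The libraries of the Tfam+/- and Zbp1-/- pairs differed within each pair in a shared way. A term shared by Tfam+/- replicate 1 and Zbp1-/- replicate 2 passed the test in 8669 of 13267 genes. Set on the other library of each pair, the same term would pass in the same genes with its sign turned. The test therefore cannot tell which library of a pair departs. The 2 named are called below the libraries that stood apart, and fits that model or omit them rest on that choice. The WT and double mutant pairs were, in contrast, nearly as close as counting allows. The median squared difference over counting noise was 1.27 in the WT pair and 1.28 in the double mutant pair, against 35.2 and 32.5 in the Tfam+/- and Zbp1-/- pairs. Both close pairs still differed beyond counting noise and were counted as 2 libraries each, with a count as 1 each among the alternatives. The spread in the fit with the shared term comes mostly from these pairs, and its 2 libraries were chosen after seeing the data. Shared terms of single genes are therefore given as sizes without p-values. Tfam lay at 278 to 424 in the 4 libraries of Tfam+/- background and at 471 to 675 in the others. Zbp1 was at 7.34 or lower in all but the Tfam+/- libraries, so its level in WT is too low to check the Zbp1-/- label. The 9 fibroblast markers were all present, with summed levels of 382448 to 382562 in WT, 333960 to 413677 in Tfam+/-, 468021 to 550400 in Zbp1-/- and 421956 to 428080 in the double mutant. Skeletal muscle markers summed to 16.9 to 42.6 over 9 genes, with Myod1 at 0 in all libraries but 1, where it was 0.98. Cardiac markers summed to 41.3 to 73.6 over 6 genes. Of the vascular mural markers Higd1b was at 0, and the 8 genes summed to 4040 to 5789.

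Per kilobase of transcript, the order of mean levels over the 8 libraries ran from Acta2 (27428 normalized counts per kb) through Tagln (17642), Postn (11667), Lox (8544), Myl9 (4952), Actg2 (1572), Cnn1 (845) and Tgfb1 (198) to Myh11 (130). Library ranges on that scale were 21537 to 32852 for Acta2 and 13324 to 26426 for Tagln, which overlap. Those of Postn, 9043 to 14192, overlapped the ranges of Tagln and of Lox, 4672 to 11243. Lox in turn overlapped Myl9 (4021 to 6178), and Tgfb1 (170 to 226) overlapped Myh11 (75.4 to 177). Actg2 (1108 to 2264) and Cnn1 (603 to 1142) overlapped as well, so among neighbours in this order only Myl9 and Actg2, and Cnn1 and Tgfb1, had ranges that did not overlap. By normalized count, not length, Acta2 ranked 15th, Lox the 31st and Postn the 34th of 13267 tested genes.

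Acta2 encodes smooth muscle alpha-actin, the defining filament protein of the myofibroblast (chr19:34240336-34255585, GRCm38.p6). Its normalized counts were 61283 and 60033 (WT), 66748 and 66853 (Tfam+/-), 52145 and 51510 (Zbp1-/-) and 44127 and 43827 (double mutant). No 2 genotypes overlapped, and the order ran from Tfam+/- down through WT and Zbp1-/- to the double mutant. Against Tfam+/-, the double mutant level fell by 0.60 ± 0.07 on the log2 scale (SE; limma adjusted p = 0.0072), and its mean fell by 34.2%. Against WT it fell by 0.46 ± 0.07 (limma adjusted p = 0.042). The differences of Tfam+/- from WT (0.14 ± 0.07, limma adjusted p = 0.56), of Zbp1-/- from WT (-0.23 ± 0.07, limma adjusted p = 0.19) and of the double mutant from Zbp1-/- (-0.24 ± 0.07, limma adjusted p = 0.27) missed the threshold. In whole cultures, fewer cells of a type and less RNA per cell cannot be told apart. Without either double mutant library the call against Tfam+/- was lost, at differences of -0.61 and -0.60. That against WT was lost without any 1 library of WT, the double mutant or Zbp1-/-, at differences of -0.48 to -0.45. Without a library of WT or the double mutant, few or no tested genes passed in the comparisons of that genotype. A call lost in those fits, here and below, therefore says little about the single gene. The shared term of the 2 libraries that stood apart was -0.01 for Acta2.

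Actg2 encodes smooth muscle gamma-actin, the actin of gut and bladder muscle (chr6:83512909-83536251, overlapping the non-coding Gm38844). It read 2328 and 2273 (WT), 3017 and 2717 (Tfam+/-), 1650 and 1780 (Zbp1-/-) and 1477 and 1526 (double mutant). The genotypes again stood in the order of Acta2 with no overlap. The double mutant fell by 0.93 ± 0.10 against Tfam+/- (limma adjusted p = 0.0049), its mean fell by 47.6%, and the level fell by 0.62 ± 0.10 against WT (limma adjusted p = 0.047). Tfam+/- differed from WT by 0.32 ± 0.10 (limma adjusted p = 0.42) and Zbp1-/- from WT by -0.42 ± 0.10 (limma adjusted p = 0.12). The call against Tfam+/- was lost without either double mutant library (limma adjusted p = 0.084 and 0.069). That against WT was lost without either library of WT (limma adjusted p = 0.40 and 0.39), Zbp1-/- (0.054 and 0.055) or the double mutant (0.43 and 0.38).

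Only 2 of the 9 genes, Acta2 and Actg2, showed that complete order. Of all tested genes 0.618% did. The order was itself read off Acta2 in these data, so these counts are a description and no test. Among other actins, Acta1 of skeletal muscle read 478 and 470 (WT), 853 and 646 (Tfam+/-), 229 and 292 (Zbp1-/-) and 242 and 246 (double mutant). Acta1 fell by 1.60 ± 0.18 in the double mutant against Tfam+/- (limma adjusted p = 0.0051), and the call was lost without either double mutant library (limma adjusted p = 0.072 and 0.068). The cytoplasmic actins lay closer together, at 63173 to 73137 for Actg1 and 41117 to 53298 for Actb. In no comparison did either pass the test. Cardiac Actc1 was at 2.90 to 8.68 and too low to be tested.

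Cnn1 encodes calponin, a thin filament protein of differentiated smooth muscle that damps myosin activity (chr9:22099221-22109221). Its normalized counts were 2451 and 2437 (WT), 2719 and 2305 (Tfam+/-), 1436 and 1774 (Zbp1-/-) and 1448 and 1522 (double mutant). All 4 libraries without Zbp1 lay below all 4 with it, while within each set the genotypes overlapped. The double mutant fell by 0.75 ± 0.14 against Tfam+/- (limma adjusted p = 0.027). Against WT the double mutant difference was -0.72 ± 0.14 (limma adjusted p = 0.066) and that of Zbp1-/- was -0.61 ± 0.14 (limma adjusted p = 0.11). The difference between the double mutant and Zbp1-/- was small, -0.10 ± 0.14 (limma adjusted p = 0.72). The call against Tfam+/- was lost without either library of WT (limma adjusted p = 0.086 for both) or of the double mutant (0.23 and 0.18), or without Tfam+/- replicate 1 (0.091). With Cnn1, Acta2 and Actg2, 3 of 9 genes were lower in every library without Zbp1 than in every library with it, against 2.45% of all tested genes.

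Myh11 encodes the smooth muscle myosin heavy chain, the motor of mature smooth muscle (chr16:14194527-14292188). It read 908 and 875 (WT), 1145 and 977 (Tfam+/-), 851 and 940 (Zbp1-/-) and 525 and 486 (double mutant). Only the double mutant stood apart on the low side, and Zbp1-/- overlapped WT. Myh11 fell by 1.06 ± 0.12 in the double mutant against Tfam+/- (limma adjusted p = 0.0059), its mean fell by 52.3%, and the level fell by 0.82 ± 0.12 against WT (limma adjusted p = 0.036). Its difference from Zbp1-/- was -0.82 ± 0.12 (limma adjusted p = 0.060), while Zbp1-/- differed from WT by 0.01 ± 0.12 (limma adjusted p = 0.98). The interaction, which is the change from Zbp1-/- to the double mutant minus that from WT to Tfam+/-, was -1.07 ± 0.17 (limma adjusted p = 0.062). The call against Tfam+/- was lost without either double mutant library (limma adjusted p = 0.074 and 0.077). That against WT was lost without either library of WT (limma adjusted p = 0.33 and 0.31) or the double mutant (0.30 and 0.35). The difference from Zbp1-/- passed without Tfam+/- replicate 1 or 2 (limma adjusted p = 0.048 and 0.046), and the interaction passed without Tfam+/- replicate 2 (0.046).

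Tagln encodes transgelin (SM22), an actin-crosslinking protein that appears early in the contractile programme (chr9:45929628-45936058, overlapping Pcsk7, whose mean level was 568.6; reads of overlapping genes cannot be told apart without strand). Its normalized counts were 27843 and 27833 (WT), 42150 and 30930 (Tfam+/-), 22542 and 31184 (Zbp1-/-) and 21373 and 21252 (double mutant). In the Tfam+/- and Zbp1-/- pairs the higher library was the one that stood apart. The shared term of those 2 libraries was 0.46 for Tagln. The double mutant lay below all other libraries, but its difference from Tfam+/-, -0.76 ± 0.19, missed the threshold (limma adjusted p = 0.073). It passed without Tfam+/- replicate 2 (limma adjusted p = 0.038), Zbp1-/- replicate 1 (0.037) or Zbp1-/- replicate 2 (0.039). Without both libraries that stood apart it was -0.54.

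Myl9 encodes the regulatory light chain of smooth muscle and non-muscle myosin, whose phosphorylation starts contraction (chr2:156775408-156781657). Its levels were 5898 and 6006 (WT), 6968 and 5630 (Tfam+/-), 4769 and 6132 (Zbp1-/-) and 4536 and 4744 (double mutant). As for Tagln, the libraries that stood apart were the higher of their pairs, with a shared term of 0.34. The double mutant was lowest, at a difference of -0.43 ± 0.15 from Tfam+/- (limma adjusted p = 0.17) and -0.36 ± 0.15 from WT (limma adjusted p = 0.41). Myl9 lies 16.4 Mb from Zbp1 on chromosome 2, and Zbp1-/- overlapped WT for it.

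**Figure D1:**
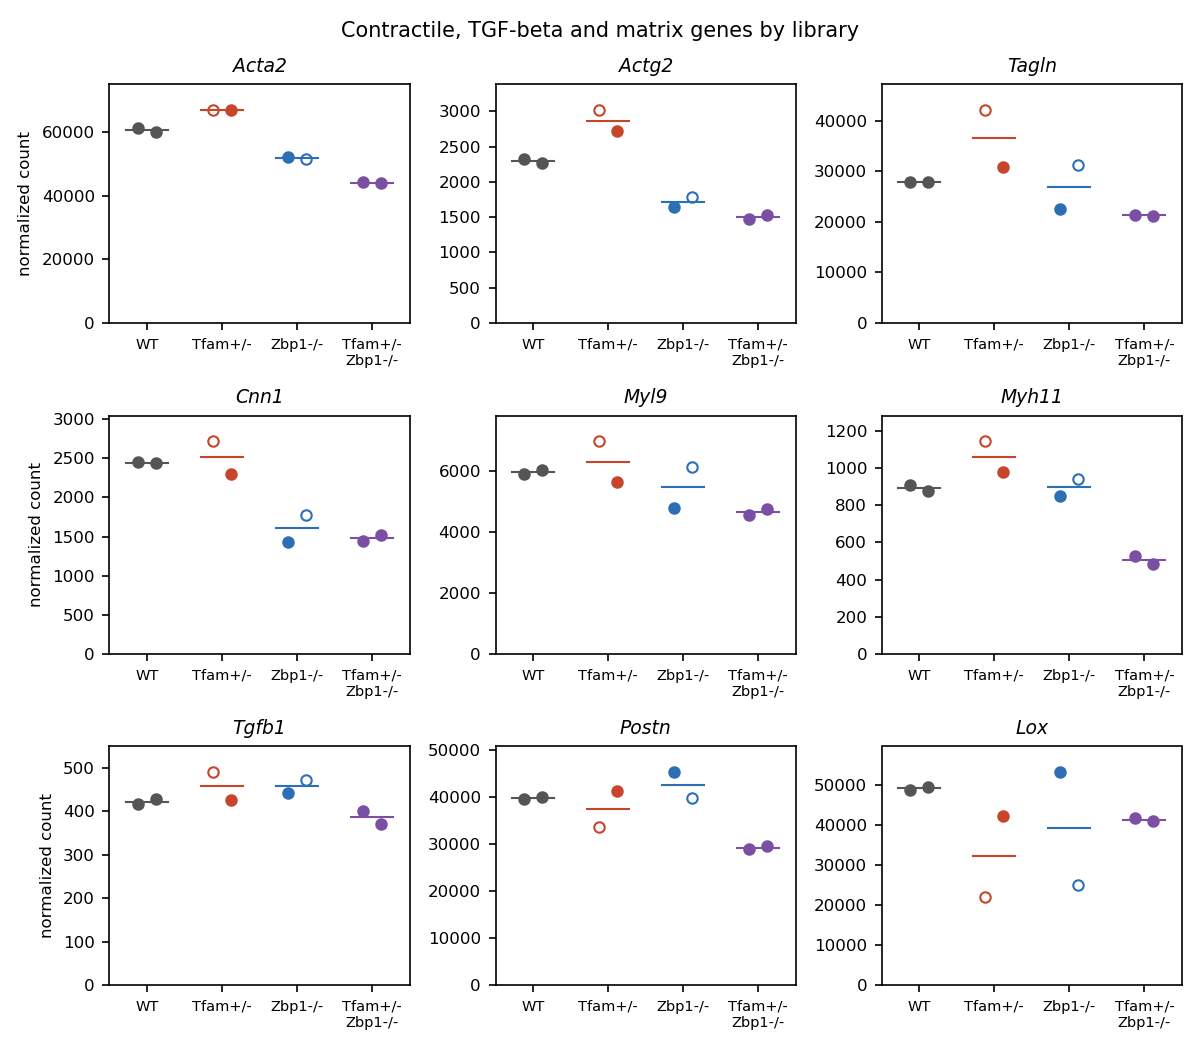
Normalized count (linear axes from 0) of each of the 9 genes in each library, by genotype; bars are the means of the 2 libraries, and open circles are Tfam+/- replicate 1 and Zbp1-/- replicate 2, which stood apart. The double mutant points are the lowest of all 8 libraries for 7 genes, and the open Lox points, 22150 and 25135, are the lowest of that gene.

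Tgfb1 encodes the ligand TGF-beta 1, which fibroblasts secrete and answer to (chr7:25687002-25705077). It read 417 and 429 (WT), 491 and 426 (Tfam+/-), 443 and 473 (Zbp1-/-) and 402 and 371 (double mutant). The whole spread was 1.32 times from the lowest to the highest library, the narrowest of the 9 genes. The double mutant was again lowest, with differences of -0.24 ± 0.12 from Tfam+/- (limma adjusted p = 0.31) and -0.13 ± 0.12 from WT (limma adjusted p = 0.73). Tgfb1 passed the test in no comparison.

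Postn encodes periostin, a matricellular protein laid down by activated fibroblasts (chr3:54359267-54391041, overlapping the non-coding Gm31095). Its normalized counts were 39617 and 39952 (WT), 33524 and 41199 (Tfam+/-), 45259 and 39782 (Zbp1-/-) and 28838 and 29479 (double mutant). The other 3 genotypes overlapped one another, and the double mutant lay below all of them. Differences of the double mutant were -0.54 ± 0.12 from Zbp1-/- (limma adjusted p = 0.15), -0.45 ± 0.12 from WT (limma adjusted p = 0.17) and -0.35 ± 0.12 from Tfam+/- (limma adjusted p = 0.17). For Postn the libraries that stood apart were the lower of their pairs, with a shared term of -0.24.

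Lox encodes lysyl oxidase, which crosslinks collagen and elastin (chr18:52516060-52529867). It read 48804 and 49603 (WT), 22150 and 42329 (Tfam+/-), 53302 and 25135 (Zbp1-/-) and 41686 and 41060 (double mutant). Both libraries that stood apart were low, with a shared term of -1.01, which was the largest in size among the 9 genes. No comparison of Lox passed the test, and its standard errors, 0.40 on the log2 scale, were the widest of the 9. The double mutant differed from Tfam+/- by 0.43 ± 0.40 (limma adjusted p = 0.54) with all 8 libraries and by -0.03 without the 2.

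With all 8 libraries, 0 of 9 genes passed in Tfam+/- against WT (0.731% of 13267 tested genes passed), with 1 at an unadjusted p under 0.05, as had 8.74% of all genes. In Zbp1-/- against WT the count was 0 of 9 (background 1.06%), with 3 at an unadjusted p under 0.05 (all genes 19.7%). In the double mutant, 3 of 9 fell against WT (Acta2, Actg2 and Myh11; background of lower calls 0.482%). Against Tfam+/-, 4 of 9 fell (these 3 and Cnn1; background of lower calls 2.32%). Against Zbp1-/- it was 0 of 9 (background 0.415%), with 3 at an unadjusted p under 0.05 (all genes 12.3%). For the interaction it was 0 of 9 (background 0.663%), with 5 at an unadjusted p under 0.05 (all genes 16.0%). Whether the falls in the double mutant differ from the differences that missed the threshold in Zbp1-/- is what the double mutant against Zbp1-/- tests, and no member passed there. The comparisons share libraries: WT enters 3 of the pairwise ones and the double mutant 3.

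The median log2 change of the 9 genes was 0.11 in Tfam+/- against WT, beside -0.01 over all tested genes. It was -0.14 in Zbp1-/- against WT (all genes 0.11), -0.45 in the double mutant against WT (all genes 0.12), -0.60 against Tfam+/- (all genes 0.14) and -0.24 against Zbp1-/- (all genes 0.02). The interaction had a median of -0.38 beside 0.00. In 3 comparisons the median moved by over 1.5 times under an alternative. That of Tfam+/- against WT was 0.04 with a term shared by those 2 libraries, 0.05 without Tfam+/- replicate 1 and 0.21 without replicate 2. That of Zbp1-/- against WT was -0.22 with the shared term or without Zbp1-/- replicate 2, and -6.6e-05 without replicate 1. That of the interaction was -0.23 with the shared term. All 9 genes lay lower in the double mutant than in WT by their means. In 7 of them, all but Cnn1 and Lox, both double mutant libraries were below the other 6, which held for 4.24% of all tested genes.

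Leaving out the 2 libraries that stood apart, or giving them a shared term, changed the counts of calls in every comparison. With 6 libraries, 4 of 9 passed in Tfam+/- against WT (Acta2, Actg2 and Tagln higher, Lox lower; background 15.6%). In Zbp1-/- against WT 7 passed (Acta2, Actg2, Tagln, Cnn1 and Myl9 lower, Postn and Lox higher; background 34.5%). All but Tgfb1, 8 genes, were lower in the double mutant than in WT (background of lower calls 7.73%), and 7 were lower than in Tfam+/- (background of lower calls 9.87%). Against Zbp1-/- 6 were lower: Acta2, Actg2, Tagln, Myh11, Postn and Lox (background of lower calls 10.8%). The same 6 were lower in the interaction (background of lower calls 9.16%). With the shared term the counts were 4, 7, 8, 7, 6 and 6 of 9 in the same order of comparisons, and in either direction 15.6%, 35.6%, 42.5%, 45.6%, 23.8% and 16.9% of all tested genes passed. With 6 libraries Tfam+/- and Zbp1-/- had 1 library each, so the p-values of that fit rest only on the close WT and double mutant pairs. Those with the shared term rest mostly on the same pairs. When each of those pairs was counted as 1 library, 0 of 9 genes passed in any comparison, as did 0 of all 13281 genes. At an unadjusted p under 0.05 that fit had 272 to 917 of all genes, and of the 9 genes 4 in the double mutant against Tfam+/-, 1 each in the double mutant against WT and against Zbp1-/- and in the interaction, and 0 in the other 2 comparisons.

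**Figure D2:**
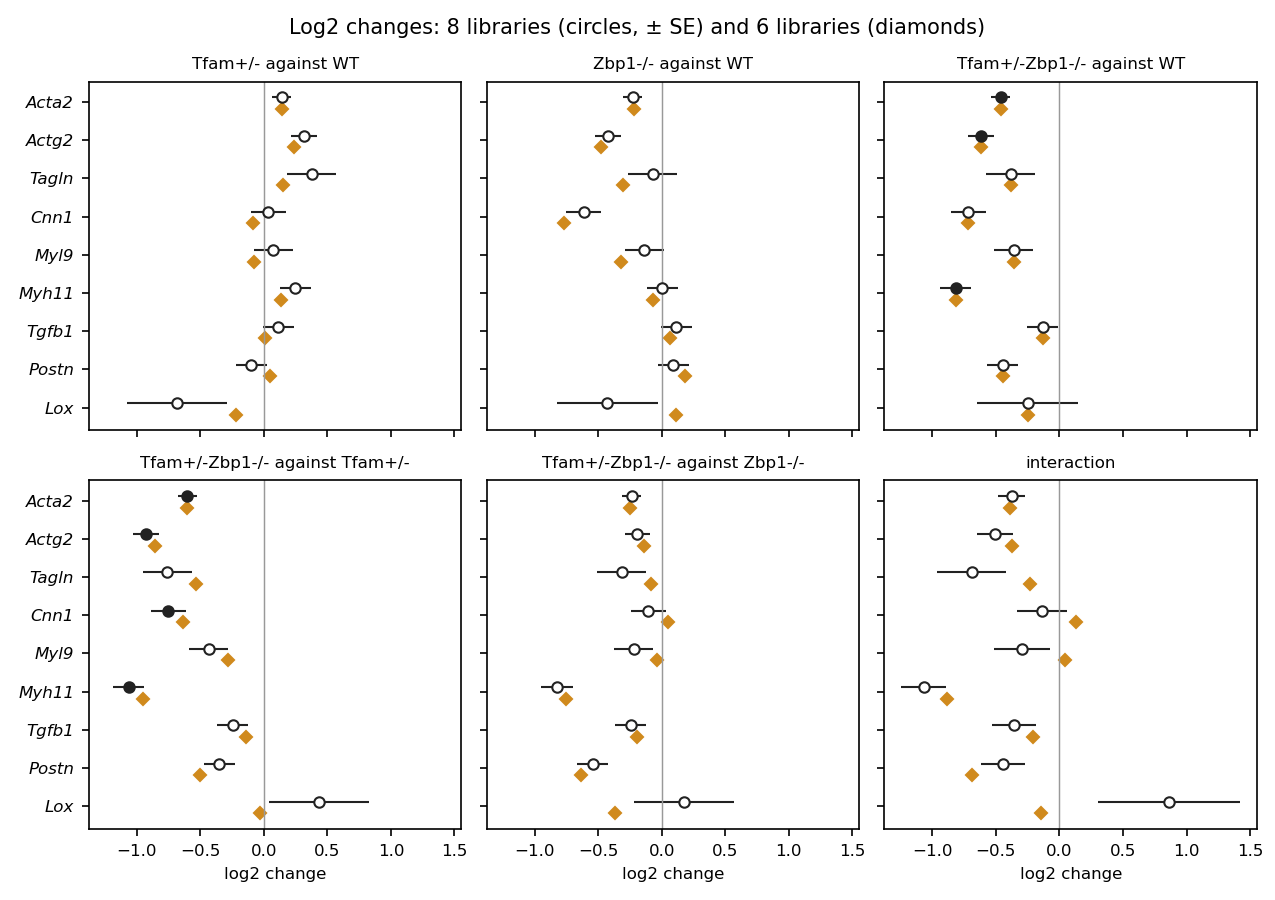
Log2 change of the 9 genes in the 6 comparisons; circles with SE bars are the fit of 8 libraries (filled where the limma adjusted p was under 0.05) and diamonds are the fit without the 2 libraries that stood apart. Filled circles appear only in the double mutant against WT (3 genes) and against Tfam+/- (4 genes), and the diamonds of Lox lie on the other side of 0 from the circles in 4 of the 6 panels.

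Across the 8 libraries, Pearson r of log2 values with Acta2 was 0.97 for Actg2, 0.90 for Cnn1, 0.89 for Myh11, 0.81 for Tagln and 0.79 for Myl9. It was 0.58 for Tgfb1, 0.54 for Postn and -0.16 for Lox. With Tagln, Myl9 reached 0.95 and Lox -0.71. The points share genotype and library, so these values describe the profiles and carry no test. Of all tested genes, those most like Tagln were Csrp1 (0.993), Hspb1 (0.986), Rftn1 (0.986), Des (0.979) and Sdc3 (0.979). Csrp1 is a cysteine-rich protein of smooth muscle, Des is the intermediate filament desmin and Hspb1 is a small heat shock protein that binds actin. Csrp1 read 8416 and 8358 (WT), 10869 and 8555 (Tfam+/-), 7019 and 8823 (Zbp1-/-) and 6995 and 6980 (double mutant), with the libraries that stood apart high as for Tagln.

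The 5 genes most like Acta2 were Laptm5 (0.994), Plk2 (0.985), Csf1r (0.983), Stab1 (0.978) and Adgra1 (0.977). Laptm5 is a lysosomal protein of blood cells, Csf1r is the receptor for macrophage growth factor and Stab1 is a scavenger receptor of macrophages. Laptm5 read 293 and 281 (WT), 413 and 370 (Tfam+/-), 201 and 198 (Zbp1-/-) and 139 and 140 (double mutant). The 8 leukocyte markers (Ptprc, Cd68, Csf1r, Adgre1, Cd14, Lyz2, Tyrobp, Fcer1g) summed to 4282 to 4324 in WT, 4942 to 5400 in Tfam+/-, 2522 to 2774 in Zbp1-/- and 2214 to 2240 in the double mutant, and none was at 0 in any library. That is the order in which Acta2 and Actg2 stood. Lyz2, at 2855 and 2844 in WT, made up most of the sum. All but Cd14 and Ptprc had means in that order. Cd14 was highest in Zbp1-/- (125 and 150, beside 101 and 112 in WT). Ptprc read 145 and 139 (WT), 96.6 and 169 (Tfam+/-), 95.2 and 49.9 (Zbp1-/-) and 79.1 and 69.3 (double mutant). In the double mutant against Tfam+/- 7 of the 8 fell, all but Ptprc (background of lower calls 2.32%). Against WT, 2 of the 8 fell (Csf1r and Lyz2; background of lower calls 0.482%). In Zbp1-/- against WT 1 of the 8, Lyz2, fell (background in either direction 1.06%). All of these calls were lost without either double mutant library, and those against WT also without either WT library (limma adjusted p = 0.20 to 0.30 for Csf1r and Lyz2 in the double mutant and 0.24 and 0.26 for Lyz2 in Zbp1-/-). Lyz2 in Zbp1-/- was lost without either Zbp1-/- library too (limma adjusted p = 0.051 and 0.093). Against Tfam+/-, Cd68, Cd14 and Tyrobp were lost without either WT library (limma adjusted p = 0.065 to 0.086), Cd68 and Cd14 without Tfam+/- replicate 1 (0.08 and 0.1) and Cd14 without Tfam+/- replicate 2 (0.057). The sum of the 8 mural markers stood in the same order by its means (5218 in Tfam+/-, 4836 in WT, 4505 in Zbp1-/- and 4059 in the double mutant). Its libraries overlapped, at 4802 to 4870 in WT, 4647 to 5789 in Tfam+/- and 4153 to 4857 in Zbp1-/-, except the double mutant, which was below the rest at 4040 to 4078. Of the mural markers only Mcam had means in that order, so the order of the sum is that of Mcam and not of the list. Cspg4, the most abundant of them, read 2372 and 2367 (WT), 2468 and 1879 (Tfam+/-), 1962 and 2305 (Zbp1-/-) and 2534 and 2461 (double mutant).

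Single genes of the marker lists of other cell types also fell in the double mutant with the contractile genes, while other members of the mural and endothelial lists were higher. The endothelial markers Pecam1, Cdh5 and Tie1 were at 7.48 or lower in every library and too low to be tested. The same held for the epithelial markers Epcam, Cdh1 and Cldn6, at 6.34 or lower. Whether endothelial or epithelial cells were present was not tested. Lower calls made up 2.32% of all tested genes against Tfam+/- and 0.482% against WT. The mural marker Mcam, 1 of 7 tested, fell by 1.47 ± 0.14 against Tfam+/- (limma adjusted p = 0.0039) and fell by 0.95 ± 0.14 against WT (limma adjusted p = 0.036). By sign, 3 of the 7 were higher than in Tfam+/- and 4 lower, with a median of -0.19. Of 3 endothelial markers tested, 1 fell: Emcn, an endothelial surface glycoprotein, fell by 2.00 ± 0.19 against Tfam+/- (limma adjusted p = 0.0037) and fell by 1.77 ± 0.19 against WT (limma adjusted p = 0.018). Tek of the same list was higher than in Tfam+/- by 1.31 ± 0.31 (limma adjusted p = 0.061). Of 3 epithelial markers tested, both keratins of simple epithelia fell against Tfam+/-, where Krt18 fell by 1.64 ± 0.21 (limma adjusted p = 0.0084) and Krt8 fell by 1.19 ± 0.25 (limma adjusted p = 0.043). Krt18 also fell by 1.41 ± 0.21 against WT (limma adjusted p = 0.036). All of these calls were lost without either double mutant library, and those against WT without either WT library (limma adjusted p = 0.054 to 0.33). Krt8 against Tfam+/- was also lost without either WT library (limma adjusted p = 0.11) or Tfam+/- replicate 1 (0.14), and Krt18 against WT without Zbp1-/- replicate 2 (0.051).

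The 9 fibroblast markers mostly differed with the opposite sign in Zbp1-/- against WT and in the double mutant against WT and Tfam+/-. In the double mutant against Zbp1-/- they mostly shared the sign, with 7 of 9 lower (median -0.35, all genes 0.02). For the interaction 6 of 9 were lower (median -0.32, all genes 0.00). In Tfam+/- against WT 4 were higher and 5 lower. All 9 had higher means in Zbp1-/- than in WT (median log2 difference 0.48, all genes 0.11). There 1 passed (background in either direction 1.06%), the growth factor receptor Pdgfra, which rose by 0.80 ± 0.12 (limma adjusted p = 0.039). In the double mutant 8 of 9 had higher means than in WT (median 0.18, all genes 0.12). Against Tfam+/- 2 of 9 rose (background of higher calls 3.32%). These were the collagen Col3a1, by 0.59 ± 0.10 (limma adjusted p = 0.018), and the proteoglycan Lum, by 1.80 ± 0.30 (limma adjusted p = 0.021). Pdgfra was lost on leaving out any 1 library of WT, Zbp1-/- or the double mutant (limma adjusted p = 0.065 to 0.37). Col3a1 and Lum were lost on leaving out any 1 library of WT or the double mutant (limma adjusted p = 0.06 to 0.17), and Lum without Tfam+/- replicate 1 (0.063). The part of these marker differences in the levels of the contractile genes was not tested.

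**Figure D3:**
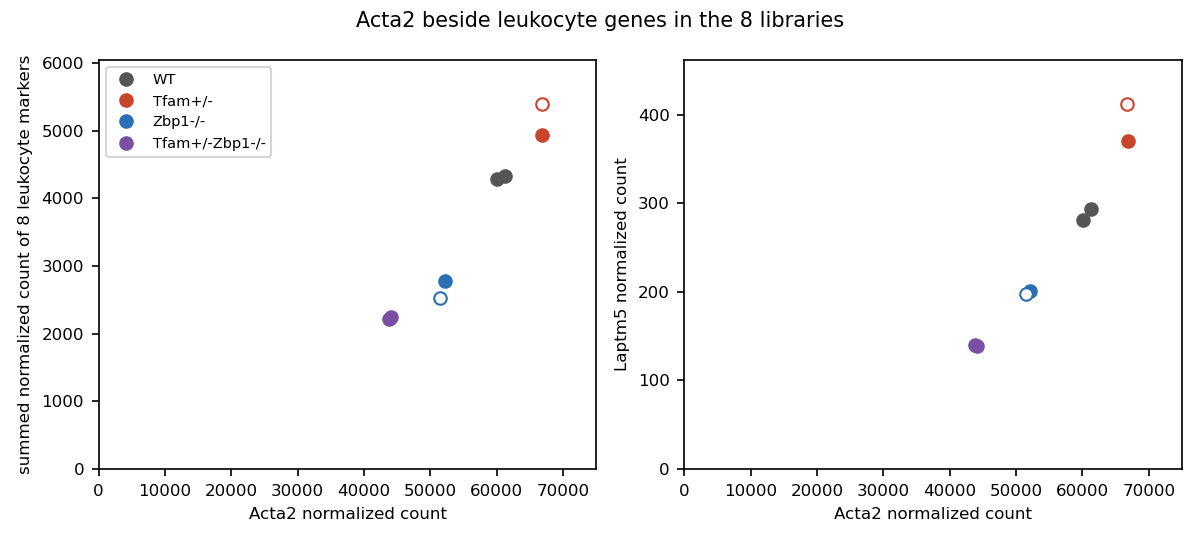
Acta2 normalized count of each library against the summed normalized count of 8 leukocyte markers (left) and against Laptm5 (right), colored by genotype, with open circles for the 2 libraries that stood apart; axes are linear from 0. Tfam+/- libraries lie at the top right (sums of 4942 and 5400) and double mutant libraries at the bottom left (2214 and 2240) in both panels.

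Another 25 contractile and SRF-linked genes, all tested, were read beside the 9. In the double mutant against Tfam+/- 2 fell (background of lower calls 2.32%): Acta1, given above, and Lmod1. Lmod1 encodes leiomodin, which starts actin filaments in smooth muscle, and it read 1352 and 1323 (WT), 1760 and 1433 (Tfam+/-), 1066 and 1384 (Zbp1-/-) and 904 and 895 (double mutant). Lmod1 fell by 0.82 ± 0.16 in the double mutant against Tfam+/- (limma adjusted p = 0.033). The call was lost without either library of WT (limma adjusted p = 0.095 for both) or of the double mutant (0.23 for both), or without Tfam+/- replicate 1 (0.11). The median of the 25 was -0.20 there, beside 0.14 over all genes. In the other 5 comparisons 0 of 25 passed, with 2 to 5 at an unadjusted p under 0.05 (all genes 8.74% to 19.7%). With the shared term 11, 14, 17, 19, 12 and 7 of 25 passed in either direction, in the order of comparisons above, against the shares of all genes given above for that fit. The most abundant genes of the list, filamin Flna and tropomyosin Tpm1, differed from WT in the double mutant by -0.06 ± 0.09 (limma adjusted p = 0.85) and -0.22 ± 0.10 (limma adjusted p = 0.46). By sign, 17 of 25 were higher in Tfam+/- than in WT (median 0.16, all genes -0.01, and 0.06 with the shared term) and 20 of 25 were lower in the double mutant than in WT (median -0.16, all genes 0.12).

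Of 21 TGF-beta pathway genes, all tested, 1 fell in Zbp1-/- against WT, the target gene Ccn2 (background in either direction 1.06%). Ccn2, connective tissue growth factor (listed as Ctgf), which is also a target of the YAP coactivator, read 9523 and 10095 (WT), 13200 and 13014 (Tfam+/-), 6646 and 6410 (Zbp1-/-) and 7041 and 6878 (double mutant). Ccn2 fell by 0.59 ± 0.08 in Zbp1-/- against WT (limma adjusted p = 0.036) and fell by 0.91 ± 0.08 in the double mutant against Tfam+/- (limma adjusted p = 0.0036). It was lower in every library without Zbp1 than in every library with it, and unlike Acta2 it was not lowest in the double mutant. Its call in Zbp1-/- against WT was lost without either library of WT (limma adjusted p = 0.32 and 0.43), Zbp1-/- (0.093 and 0.16) or the double mutant (0.17 for both). That in the double mutant against Tfam+/- was lost without either double mutant library (limma adjusted p = 0.065 and 0.068).

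The signalling receptor Tgfbr2 went the other way, with 3746 and 3901 (WT), 3152 and 3310 (Tfam+/-), 5658 and 5213 (Zbp1-/-) and 5545 and 5339 (double mutant). Tgfbr2 rose by 0.75 ± 0.09 in the double mutant against Tfam+/- (limma adjusted p = 0.0072), a call lost without either double mutant library (limma adjusted p = 0.11 and 0.087). Tgfbi, a matrix protein induced by TGF-beta, read 1234 and 1209 (WT), 1042 and 842 (Tfam+/-), 1937 and 2297 (Zbp1-/-) and 1521 and 1505 (double mutant). Tgfbi rose by 0.69 ± 0.14 in the same comparison (limma adjusted p = 0.038). Its call was lost without either library of WT (limma adjusted p = 0.11 for both) or the double mutant (0.26 and 0.24), or without Tfam+/- replicate 2 (0.069). There 2 of the 21 rose (Tgfbr2 and Tgfbi; background of higher calls 3.32%) and 1 fell (Ccn2; background of lower calls 2.32%), with a median of 0.29 beside 0.14 over all genes. In the remaining 4 comparisons 0 of 21 passed, with 4 to 5 at an unadjusted p under 0.05 (all genes 8.74% to 16.0%). With the shared term 10, 13, 17, 16, 9 and 10 of 21 passed in the 6 comparisons, and the 16 in the double mutant against Tfam+/- were 14 higher and 2 lower. Of all tested genes 15.6%, 35.6%, 42.5%, 45.6%, 23.8% and 16.9% passed in that fit. The most abundant gene of the list, thrombospondin Thbs1, which can activate latent TGF-beta, differed from WT by -0.02 ± 0.09 in Tfam+/- (limma adjusted p = 0.90).

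Of 22 matrix crosslinking and matricellular genes, all tested, the lysyl oxidase relative Loxl2 fell in the double mutant against each other genotype. Lower calls made up 2.32% of all tested genes against Tfam+/- and 0.482% against WT. Against Zbp1-/- 0.415% passed in either direction. Loxl2 read 13814 and 13846 (WT), 16078 and 15176 (Tfam+/-), 12237 and 12629 (Zbp1-/-) and 7390 and 7267 (double mutant). Its level in the double mutant fell by 1.09 ± 0.08 against Tfam+/- (limma adjusted p = 0.0025). It fell by 0.92 ± 0.08 against WT (limma adjusted p = 0.010) and fell by 0.76 ± 0.08 against Zbp1-/- (limma adjusted p = 0.035). Unlike Lox, it hardly differed within pairs. The call against Tfam+/- was lost without either double mutant library (limma adjusted p = 0.054 and 0.053). That against WT was lost without either library of WT or the double mutant (limma adjusted p = 0.19 to 0.22), and that against Zbp1-/- without any library of WT, Zbp1-/- or the double mutant (0.11 to 0.49).

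Eln, the elastic fibre protein elastin that Lox crosslinks, was higher without Zbp1, with 1623 and 1619 (WT), 1158 and 865 (Tfam+/-), 2982 and 4382 (Zbp1-/-) and 3764 and 3846 (double mutant). Eln rose by 1.93 ± 0.21 in the double mutant against Tfam+/- (limma adjusted p = 0.0048) and by 1.23 ± 0.21 against WT (limma adjusted p = 0.049; background of higher calls 0.897%). The first call was lost without either double mutant library (limma adjusted p = 0.068 for both), the second without either library of WT or the double mutant (0.35 to 0.37). Tgm2, a transglutaminase that crosslinks matrix proteins, read 621 and 571 (WT), 669 and 553 (Tfam+/-), 359 and 483 (Zbp1-/-) and 313 and 335 (double mutant). The log2 change of Tgm2 in the double mutant against Tfam+/- was -0.91 ± 0.17 (limma adjusted p = 0.032), and the call was lost without either library of WT (limma adjusted p = 0.088 and 0.087) or the double mutant (0.24 and 0.19), or without Tfam+/- replicate 1 (0.11). In that comparison 3 of the 22 rose (Eln, Mfap5 and Fbn1, all of elastic fibres or microfibrils) and 3 fell (Loxl2, Tgm2 and Tnc), beside 3.32% and 2.32% of all genes, with a median of -0.07 beside 0.14 over all genes (-0.11 with the shared term). Fbn1 passed in only 1 of 8 fits without 1 library, that without Zbp1-/- replicate 1 (limma adjusted p = 0.051 to 0.35 in the others), and Mfap5 and Tnc were lost without either double mutant library (0.11 to 0.14). In Tfam+/- against WT and in Zbp1-/- against WT 0 of 22 passed (6 and 5 had an unadjusted p under 0.05, beside 8.74% and 19.7% of all genes). With the shared term 15, 16, 19, 19, 14 and 16 of 22 passed in the 6 comparisons. Of all tested genes 15.6%, 35.6%, 42.5%, 45.6%, 23.8% and 16.9% passed in that fit. Fibronectin Fn1, the most abundant of them, differed from WT by 0.22 ± 0.11 (limma adjusted p = 0.56) and 0.18 ± 0.11 (limma adjusted p = 0.37) there.

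**Figure D4:**
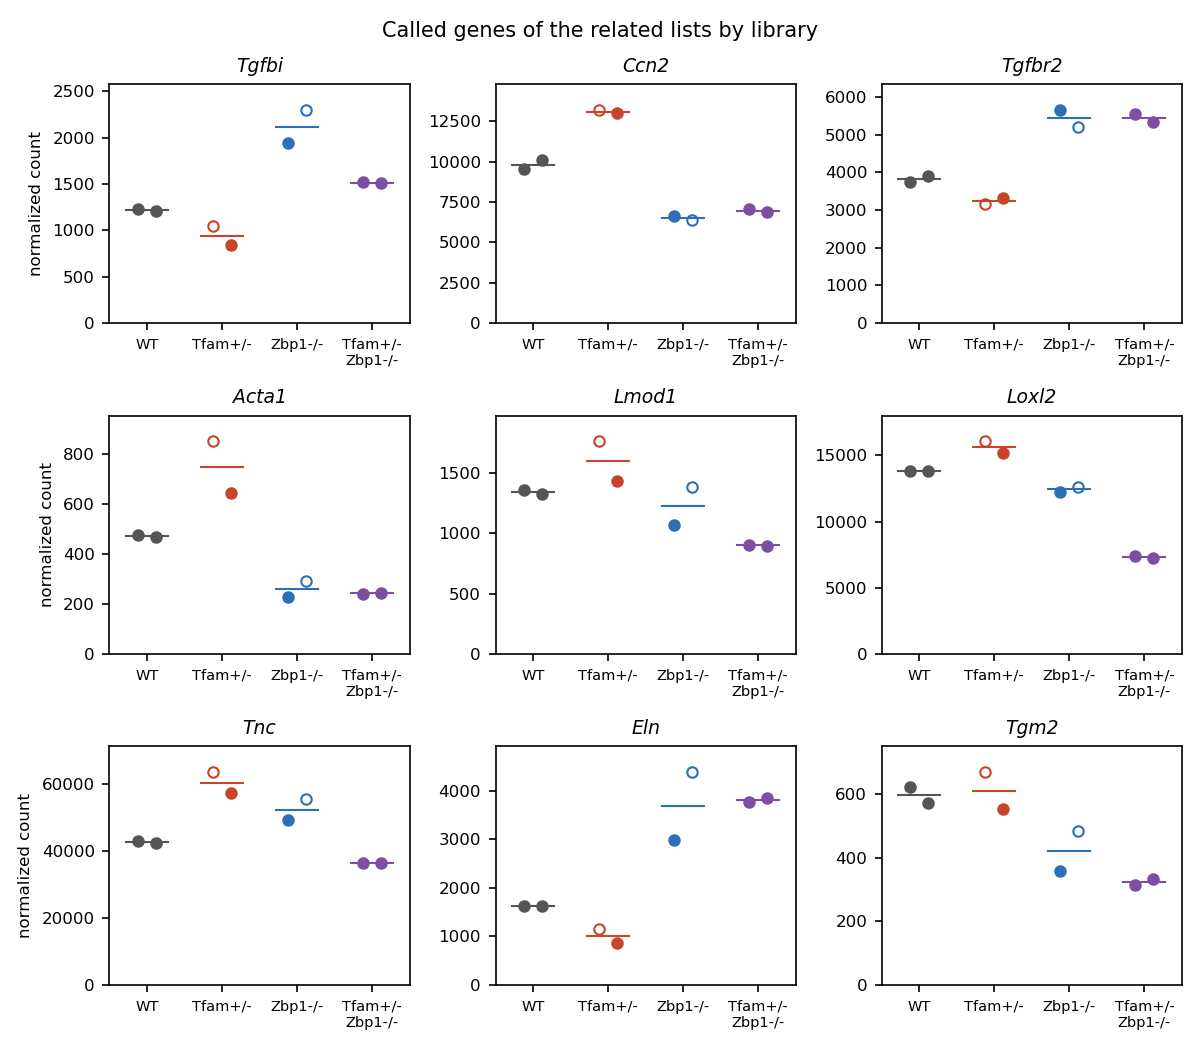
Normalized count (linear axes from 0) per library of 9 genes from the related lists that passed the test in at least 1 comparison, by genotype; bars are the means of 2 libraries and open circles the 2 libraries that stood apart. Ccn2 is lowest in Zbp1-/-, Loxl2 is lowest in the double mutant (7390 and 7267), and Tgfbr2, Tgfbi and Eln are higher without Zbp1.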

How the data were processed

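The authors aligned reads with STAR 2.6.1a to mm10 with RefSeq genes in BaseSpace and named Salmon, per the series' design text and the submitters' processing notes. What the authors deposited is a table of normalized counts, 1 non-negative signal for each gene and library with decimals. The sources used here do not give its scaling or the use of strand. Whole reads could not be recovered, since 22.2% to 35% of low values came within 0.01 of an integer number of reads, and no count model was run.

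limma 3.58.1 in R 4.3.3 (lmFit, eBayes with a trend) was fitted to log2(normalized count + 1) over all 8 libraries, with 4 residual and 2.77 prior degrees of freedom. The fit assumes 1 spread per gene for all 4 genotypes, although their pairs differed unequally, as given above. The SEs of the double mutant against WT thus also hold the wider spread of the Tfam+/- and Zbp1-/- pairs, which are outside that comparison. Changes are given on this scale, which shrinks those of low genes. The 13267 genes with a mean of at least 10 were tested, two-sided, with Benjamini-Hochberg adjustment over all of them, and called at an adjusted p under 0.05. An exact permutation test of 2 against 2 libraries cannot go below 0.333. The script was tested on simulated data.

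Alternatives were pseudocounts of 5 and 0.1, no filter, trimmed mean of M-values scaling, a replicate block and leaving out each library. Those chosen after seeing the data were a shared term for the 2 libraries that stood apart, leaving both out, and counting the close pairs once. The 9 genes, the lists and the marker genes were chosen with earlier results of these data known. Named from each list were the called genes of a comparison, at most the 3 with the largest change, or with none called the 2 most abundant. The 5 genes most like Acta2 and Tagln by Pearson r were also named, and Mfap5 and Fbn1 only as members of small counts. Marker genes were named where called, and Cspg4 and Tek to show list members that went the other way. Lengths and exons are from GENCODE M21 and coordinates from RefSeq GRCm38.p6 (mm10), 1-based. Marker lists were read as summed levels and by the same test of each gene. An item of the TGF-beta list is not reported here.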

Additional observations from a re-analysis of the deposited data

Results flagged for a closer look

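The interaction test asks whether the change with Tfam genotype differs between the Zbp1 backgrounds. Of 22 matrix genes 2 passed it with all 8 libraries, beside 0.663% of all tested genes in either direction. The interaction of Loxl2 was -0.94 ± 0.12 on the log2 scale (limma adjusted p = 0.030), and that of Tnc, the matricellular protein tenascin C, was -1.02 ± 0.14 (limma adjusted p = 0.038). Tnc read 43101 and 42555 (WT), 63636 and 57228 (Tfam+/-), 49199 and 55445 (Zbp1-/-) and 36370 and 36454 (double mutant), so Tfam+/- was above WT while the double mutant was below Zbp1-/-. On leaving out 1 library the values ran from -0.98 to -0.90 and from -1.10 to -0.93. The call of Loxl2 held in 1 of 8 such fits, that without Tfam+/- replicate 2 (limma adjusted p = 0.053 to 0.28 in the others). That of Tnc held in 2, those without Tfam+/- replicate 2 or Zbp1-/- replicate 1 (0.085 to 0.28 in the others). With the shared term they were -0.87 and -0.85. The same test passed for 1 marker gene, the neurotrophin receptor Ngfr of the neural crest list, with an interaction of -2.11 ± 0.26 (limma adjusted p = 0.03). Ngfr read 116 and 114 (WT), 104 and 107 (Tfam+/-), 266 and 374 (Zbp1-/-) and 65.1 and 68.3 (double mutant). Its call held in 2 of 8 fits without 1 library, those without Tfam+/- replicate 2 or Zbp1-/- replicate 1 (0.062 to 0.24 in the others).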

How the results depend on the processing

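Pseudocounts of 5 and 0.1 and trimmed-mean scaling changed no call of the 9 genes. Without the filter on low values, 1 gene, Myh11, was called in the double mutant against WT and 4 against Tfam+/-. No filter also took the calls over all genes against Zbp1-/- from 55 to 26 and in Zbp1-/- against WT from 141 to 87, in the double mutant against WT from 183 to 117 and in the interaction from 88 to 47. The replicate numbers do not pair the libraries: correlations of replicate 1 minus 2 between genotypes were -0.70 to 0.06. With the replicate block 0 genes were called in the double mutant against WT (5 at an unadjusted p under 0.05) and 3 against Tfam+/- (Cnn1 lost, limma adjusted p = 0.086), and 0 in the other 4; over all genes the block gave 28, 1, 8, 351, 1 and 0 calls in the order of comparisons given in the report. Leaving out 1 library gave 0 to 3 calls in the double mutant against WT, 0 to 5 against Tfam+/-, 0 to 1 against Zbp1-/- and 0 to 1 in the interaction, and 0 in the other 2; over all genes 12 to 98, 0 to 226, 0 to 257, 12 to 877, 0 to 94 and 0 to 133. A lone library is there assumed to vary like the others.

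Both the shared term and the 6 libraries gave 4, 7, 8, 7, 6 and 6 calls of 9. Counting the WT and double mutant pairs once each gave 0 in the double mutant against WT and 0 against Tfam+/-. Signs turned as follows, with the shared term, the 6 libraries and the range on leaving out 1 library. In Tfam+/- against WT: Cnn1 -0.101, -0.085 and -0.085 to 0.154; Myl9 -0.094, -0.080 and -0.080 to 0.228; Postn 0.023, 0.050 and -0.247 to 0.050. In Zbp1-/- against WT: Myh11 -0.087, -0.066 and -0.066 to 0.077 (-0.040 with trimmed-mean scaling), Lox 0.078, 0.115 and -0.969 to 0.115. There the range was -0.304 to 0.164 for Tagln, -0.319 to 0.043 for Myl9 and -0.0001 to 0.186 for Postn, with no turn in the other fits. In the double mutant against Tfam+/-, Lox was -0.071, -0.033 and -0.033 to 0.901. Against Zbp1-/- Cnn1 was 0.032, 0.048 and -0.256 to 0.048, and Lox -0.328, -0.366 and -0.366 to 0.719. In the interaction Cnn1 was 0.133, 0.133 and -0.291 to 0.014, Myl9 0.040 in both and Lox -0.148 in both. The cause was not tested. All 9 genes were counted at 371 or more in every library, where counting noise is small beside the spread of the Tfam+/- and Zbp1-/- pairs.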

Other observations

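Of the marker lists read beside the contractile genes, the 5 neural crest and Schwann cell genes summed to 224 to 259 in WT, 193 to 235 in Tfam+/-, 502 to 586 in Zbp1-/- and 153 to 177 in the double mutant. Of the 4 tested, 1 passed: Ngfr, the low-affinity neurotrophin receptor. Ngfr rose by 1.45 ± 0.18 in Zbp1-/- against WT (limma adjusted p = 0.025; background in either direction 1.06%). It fell by 2.23 ± 0.18 in the double mutant against Zbp1-/- (limma adjusted p = 0.025; background in either direction 0.415%). These calls were lost on leaving out any 1 library of WT or the double mutant, or Zbp1-/- replicate 2 (limma adjusted p = 0.085 to 0.48). The 6 endothelial markers summed to 339 to 356, 396 to 461, 273 to 310 and 318 to 337 in the same order of genotypes. The 6 epithelial markers summed to 656 to 681, 769 to 1018, 565 to 690 and 577 to 591.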
